A study of Homo sapiens with 4 samples.

Results

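The mRNAs that encode the mRNA decay machinery were followed in a PAR-CLIP study of the helicase DHX36 in HEK293 cells, a human embryonic kidney cell line. Members were taken by gene symbol, as the lines of the deposited table for the CCR4-NOT subunits (CNOT), PAN2, PAN3 and PARN, the decapping factors (DCP and EDC), the LSM proteins, the RNA exosome subunits (EXOSC), XRN1, XRN2 and the nonsense-mediated decay factors (UPF and SMG). This gave 54 of the 26490 lines. The symbol rule used no measured value. In PAR-CLIP, the photoreactive nucleoside 4SU is built into new RNA and UV light of 365 nm, here for 5 min, crosslinks it to the bound protein, so that T-to-C conversions in the sequenced fragments mark the contact.

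DHX36 is a DEAH-box helicase that unwinds G-quadruplexes, which are folded structures of G-rich RNA or DNA. Both cell lines carried a stably integrated, tetracycline-inducible transgene with an HA-Flag tag, induced with 500 ng/ml for 15 h, and the tagged protein was precipitated with the anti-FLAG M2 antibody. The line called FH-DHX36 carried DHX36-iso2, and the line called FH-DHX36-E335A carried DHX36-iso1 with the E335A substitution, which inactivates the helicase. Isoform and mutation therefore differ together and cannot be told apart, and the tagged protein was made in addition to the cells' own DHX36. There were 2 replicates per line and 4 samples in all, but the table holds 1 value per gene and line. No test between the lines was possible, and no spread between replicates can be given. A control without the tagged protein was not analysed here.

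Each gene has 3 quantities. A cluster is a place on the RNA where reads with T-to-C conversions pile up. Crosslinked reads are the reads that make up the clusters, split by their position into 5'UTR, CDS, 3'UTR and introns, and into a remainder called other annotation here. NXPM relates crosslinked reads to how much of the mRNA the cells hold, after correction for the size of each data set. Crosslinked reads summed to 2160413 for FH-DHX36 and to 8752127 for FH-DHX36-E335A, which is 4.05 times as many. To compare the lines, reads were therefore scaled to a total of 1000000 per line, and these values are called scaled reads. A gene without a cluster is listed at 0, which does not show that DHX36 was absent from it, since reads outside called clusters are not in the table. Of the HEK293 markers looked up, LIN28B and NEFL had clusters while PAX2 and NEFM had none, and the liver, blood and pancreas markers ALB, HBB, PTPRC, INS and CD3E had none.

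Cytoplasmic mRNA decay usually begins with shortening of the poly(A) tail, by PAN2-PAN3 and then by the CCR4-NOT complex, whose nucleases are CNOT6 or CNOT6L and CNOT7 or CNOT8. The LSM1 to LSM7 ring then binds the shortened 3' end and helps DCP2 and its partners to remove the cap, after which XRN1 degrades the RNA from the 5' end. The exosome degrades RNA from the 3' end, and the UPF and SMG proteins direct mRNAs with premature stop codons into these pathways. The values below concern DHX36 contacts on the mRNAs of these factors and not the proteins.

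In FH-DHX36-E335A, 48 of the 54 decay mRNAs had at least 1 cluster, against a background of 34.5% of all lines of the table. In FH-DHX36 there were 31, against a background of 22.4%. Among the 18878 lines matched to a protein-coding gene these backgrounds were 48.1% and 31.2%. The median recovered abundance of the bound members was 10.4 in FH-DHX36-E335A and 8.92 in FH-DHX36, against 5.89 and 7.30 over all bound genes. Its part in these counts was not tested, since no abundance can be recovered for genes without a cluster. All 31 mRNAs bound in FH-DHX36 were also bound in FH-DHX36-E335A. The background for binding in both was 21.4% of all lines and 29.9% of protein-coding ones. Another 17 members were bound in FH-DHX36-E335A alone and none in FH-DHX36 alone. Of the 18878 protein-coding lines, 3433 were bound in FH-DHX36-E335A alone and 255 in FH-DHX36 alone, so binding in FH-DHX36 alone was rare in the whole table. The 6 members without any cluster were CNOT3, a CCR4-NOT subunit, PARN, a poly(A)-specific nuclease, EXOSC4, a subunit of the exosome ring, and the LSM proteins LSM2, LSM8 and LSM14A. Of all protein-coding lines, 50.6% had no cluster in either PAR-CLIP.

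A second list held decay factors that the symbol rule does not take. Examples are the exosome nuclease DIS3, the decapping activator DDX6 and the CCR4-NOT partners BTG1 and TOB1. The share of bound genes in this list was similar. Of its 42 genes, 36 were bound in FH-DHX36-E335A and 25 in FH-DHX36. The list thus stood at 85.7% and 59.5%, against 88.9% and 57.4% of the members and 48.1% and 31.2% of protein-coding lines. Its highest read number in FH-DHX36-E335A was that of BTG1 with 10970, a regulator that recruits the deadenylase, and its highest NXPM was that of the noncanonical poly(A) polymerase PAPD5 with 577 in FH-DHX36-E335A and 186 in FH-DHX36. RQCD1, the CCR4-NOT subunit now named CNOT9, had 2395 reads in 19 clusters in FH-DHX36-E335A and 230 reads in 4 clusters in FH-DHX36.

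**Figure D1:**
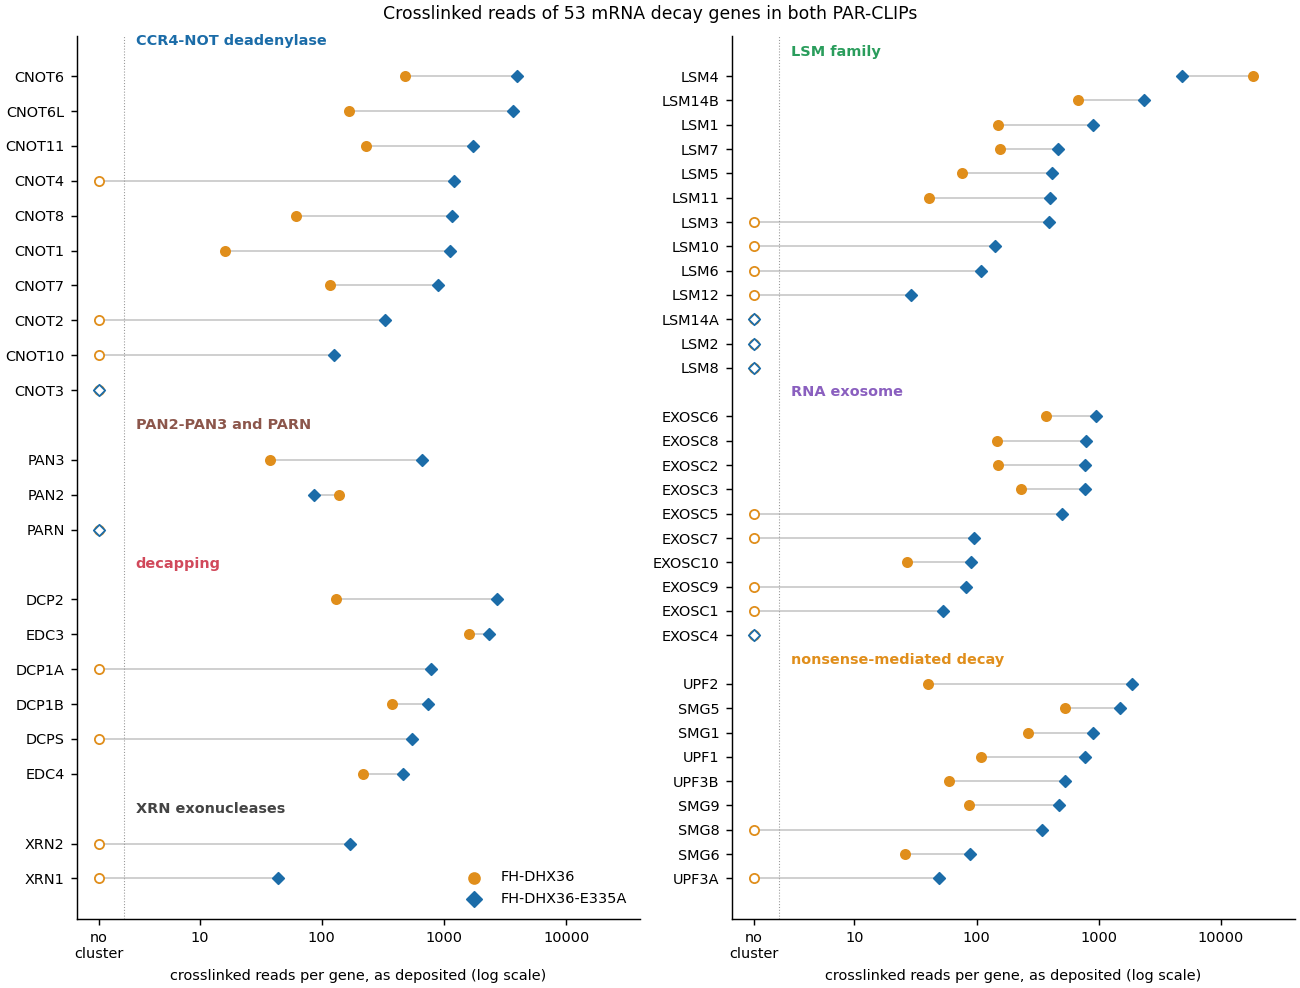
Crosslinked reads per gene, as deposited, of 53 of the 54 decay mRNAs by role, on a log axis, with circles for FH-DHX36 and diamonds for FH-DHX36-E335A. Open symbols at the left mark genes without a cluster. LSM4 with 18367 reads in FH-DHX36 stands to the right of every other point, and LSM4 and PAN2 are the members with more reads in FH-DHX36.

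The plot of reads by role shows 1 mRNA apart from the rest. LSM4 encodes a subunit of the heptameric LSM rings of mRNA decay and of the spliceosome, and its protein ends in a tail rich in arginine and glycine. It had 18367 crosslinked reads in 7 clusters in FH-DHX36 and 4796 reads in 6 clusters in FH-DHX36-E335A. In FH-DHX36 it ranked 3 of all genes by reads, and the 17661 reads in its CDS were the highest CDS read number in the table. These CDS reads lay in 2 clusters of a coding sequence of 417 nt. The CDS held 96.2% (95% Wilson interval 95.9 to 96.4) of the LSM4 reads in FH-DHX36 and 47.2% (45.8 to 48.6) in FH-DHX36-E335A, where the 3'UTR held another 45.6%. This interval, like the others below, covers counting error only, and PCR copies of a read are not independent molecules.

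In scaled reads, LSM4 stood at 8502 in FH-DHX36 and 548 in FH-DHX36-E335A. The difference was 15.5-fold, with a counting interval of 15.0 to 16.0, and it went against the direction of the median member. NXPM was 33.5 in FH-DHX36 and 2.16 in FH-DHX36-E335A. The mRNA was abundant at 254, in the units of abundance recovered from NXPM, and in FH-DHX36 it ranked 1132 of all genes by NXPM. The NXPM of both lines divides by the same abundance, so it carries the same ratio between them and adds no second measurement of it.

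The LSM4 gene lies on the minus strand of chr19:18417046-18433922 (GRCh37, the build of hg19) and has 5 exons. The 5'UTR of its canonical transcript has 56 nt and the 3'UTR 1228 nt. Its mRNA was searched on the sense strand for 4 successive guanine runs, each of 2 or more, with loops of 1 to 7 nt between them, a pattern that can form a G-quadruplex of 2 layers. The CDS held 5 matches, all between nt 234 and nt 365 of the coding sequence of 417 nt, where all coding sequences together held 2.92 per kb. The 4 matches of the CDS that do not cross an intron, and the single match of the 3'UTR, are printed with the guanine runs in capitals, because they lie in the 2 regions that took most of the LSM4 reads. Positions of clusters within a region are not in the table, so whether the clusters lie on these matches was not tested.
LSM4 CDS, chr19:18420569-18420582, minus: GGtcaaGGaGGaGG
LSM4 CDS, chr19:18420550-18420567, minus: GGtGGccaaGGGccgcGG
LSM4 CDS, chr19:18420499-18420515, minus: GGccgcGGcatGGGcGG
LSM4 CDS, chr19:18418329-18418350, minus: GGGGccgaGGtGGGatcccGGG
LSM4 3'UTR, chr19:18418169-18418190, minus: GGaagaGGcaGGcgccaGGGGG

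The other subunits of the LSM rings had few reads for their abundance. LSM1, which occurs in the cytoplasmic ring only, had 150 reads in FH-DHX36, all in 1 cluster of the 5'UTR, and 891 reads in FH-DHX36-E335A, none of them in the 5'UTR. LSM5 had 76 reads in FH-DHX36, all intronic, and 414 in FH-DHX36-E335A, of which 252 lay in the 3'UTR. LSM7 had 155 and 464 reads, and its NXPM of 0.142 in FH-DHX36 and 0.105 in FH-DHX36-E335A belonged to an mRNA with a recovered abundance of 504, the highest of the bound members. LSM3 (394 reads) and LSM6 (108 reads) were bound in FH-DHX36-E335A alone. LSM4 was thus the exception among the ring subunits by reads, and by NXPM in FH-DHX36. There the other 3 bound subunits of the ring lay between 0.142 and 1.15. In FH-DHX36-E335A the 6 bound ring subunits lay between 0.105 and 2.16.

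Outside the rings, LSM14B, a paralog of the P-body protein LSM14A, had 677 reads in FH-DHX36 and 2328 in FH-DHX36-E335A, with 94.4% and 97.6% of them in the 3'UTR. Its NXPM of 47.0 and 39.9 was among the highest of the members in FH-DHX36, and in scaled reads the lines differed by 1.18-fold, higher in FH-DHX36. LSM14A itself had no cluster. LSM11, a U7 snRNP protein of histone mRNA processing, had 41 reads in 1 CDS cluster in FH-DHX36 and 400 reads in 11 clusters in FH-DHX36-E335A, 10 of them in the 3'UTR. Its low abundance of 1.15 put its NXPM at 16.5 and 39.6. The U7 subunit LSM10 (141 reads, NXPM 0.0957) and LSM12 (29 reads, NXPM 0.0778) were bound in FH-DHX36-E335A alone and had the lowest NXPM values of the bound members in that PAR-CLIP.

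LSM14B (plus strand of chr20:60697517-60710430) had 8 matches to the guanine pattern in a 3'UTR of 1226 nt, and with EDC4 it was 1 of 2 members whose 3'UTR also held 4 runs of at least 3 guanines within the same loop limits. Of all protein-coding 3'UTRs, 13.8% held such a stricter match and 63.2% held a match with runs of 2. The LSM14B sites that take part in the stricter matches are printed with the guanine runs in capitals.
LSM14B 3'UTR, chr20:60709699-60709719, plus: GGGtGGcgtGGGGGGcaGGGG
LSM14B 3'UTR, chr20:60709721-60709734, plus: GGGtGGGtGGaGGG
LSM14B 3'UTR, chr20:60710143-60710156, plus: GGGtGGaGGGaGGG

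Among the CCR4-NOT subunits, the mRNAs of the nuclease pair CNOT6 and CNOT6L had the most reads in FH-DHX36-E335A. CNOT6L had 166 reads in FH-DHX36 and 3687 in FH-DHX36-E335A, of which 3637, or 98.6% (98.2 to 99.0), lay in the 3'UTR. Its NXPM of 272 in FH-DHX36-E335A was the highest of all members and ranked 144 of the 9131 bound genes, and in FH-DHX36 it was 49.7. Per kb of transcript, which takes account of its 8.77 kb, NXPM was 31.1 in FH-DHX36-E335A, still the highest of the members, where the median over bound protein-coding genes was 1.57. CNOT6 had 479 reads in FH-DHX36 and 3927 in FH-DHX36-E335A, there in 31 clusters, more than any other member, with 18 in the 3'UTR and 7 in the CDS. NXPM of CNOT6 was 49.2 and 99.5. Its reads in the 3'UTR made up 80.2% (76.4 to 83.5) in FH-DHX36 and 43.6% (42.1 to 45.2) in FH-DHX36-E335A, where 1202 reads lay in other annotation.

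The 3'UTRs of both genes are long and hold few G-run matches for their length. CNOT6L (minus strand of chr4:78634541-78740769) has a 3'UTR of 7044 nt with 5 matches, and CNOT6 (plus strand of chr5:179921379-180005358) has a 3'UTR of 4158 nt with 3. These are shown because the 3'UTR of CNOT6L took nearly all reads of the member with the highest NXPM. The 5'UTR of CNOT6 held 13 matches in 387 nt and no cluster in either PAR-CLIP. The lack of a cluster does not show that DHX36 was absent there, since a cluster needs reads with T-to-C conversions.
CNOT6L 3'UTR, chr4:78639827-78639843, minus: GGGacgaGGGtGGtGGG
CNOT6L 3'UTR, chr4:78636821-78636834, minus: GGaaGGtGGtaaGG
CNOT6L 3'UTR, chr4:78636378-78636395, minus: GGcatGGtGGtagcatGG
CNOT6L 3'UTR, chr4:78635871-78635888, minus: GGGGaGGGatttGGatGG
CNOT6L 3'UTR, chr4:78635631-78635651, minus: GGagtGGGGaagtatGGaGGG
CNOT6 3'UTR, chr5:180001260-180001284, plus: GGGGagtgaGGtatGGccactgaGG
CNOT6 3'UTR, chr5:180003238-180003257, plus: GGtgagctGGagctGGttGG
CNOT6 3'UTR, chr5:180003328-180003344, plus: GGaagcGGGagaGGaGG

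The partner nucleases CNOT7 and CNOT8 had fewer reads and lower NXPM. CNOT7 had 116 reads in FH-DHX36, all intronic, and 901 in FH-DHX36-E335A, where 451 lay in the 3'UTR and 249 in introns. CNOT8 had 61 reads in FH-DHX36, all in other annotation, and 1158 in FH-DHX36-E335A. NXPM in FH-DHX36-E335A was 3.16 for CNOT7 and 14.8 for CNOT8, below that of CNOT6 and CNOT6L. CNOT11, a subunit of the module at the amino terminus of CNOT1, had 229 and 1718 reads, the former all in a single 3'UTR cluster and the latter at 94.1% in the 3'UTR.

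The scaffold CNOT1 showed another pattern. It had 16 reads in 1 CDS cluster in FH-DHX36 and 1127 reads in 26 clusters in FH-DHX36-E335A, of which 18 clusters and 84.5% of the reads (82.2 to 86.5) lay in the CDS of 7128 nt. At 17.4-fold in scaled reads, with a counting interval of 10.6 to 28.5, it was the member with the largest ratio in favor of FH-DHX36-E335A, but the FH-DHX36 value rests on 16 reads. Its 26 clusters held 43.3 reads each where those of CNOT6L held 284. CNOT4, a RING-type ubiquitin ligase of the complex, had no cluster in FH-DHX36 and 1203 reads in FH-DHX36-E335A, 918 of them intronic (76.3%, 73.8 to 78.6). It was the 1 member of 45 with at least 50 reads in that PAR-CLIP for which most reads were intronic, where the background was 4.65%. CNOT2 with 328 and CNOT10 with 125 reads were bound in FH-DHX36-E335A alone, and 61.6% of the CNOT10 reads lay in the 5'UTR.

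PAN2 and PAN3, which form 1 deadenylase of a nuclease and its adapter, went in opposite directions. PAN2 had 138 reads in FH-DHX36 and 87 in FH-DHX36-E335A, and in scaled reads it was 6.43-fold higher in FH-DHX36 (4.91 to 8.40). The reads lay in the 5'UTR at 55.1% and 51.7% and otherwise in introns, with none in the CDS or 3'UTR in either line. PAN3 had 38 reads in FH-DHX36, all in the 5'UTR, and 665 in FH-DHX36-E335A, none of them in the 5'UTR and 447 in the 3'UTR, and in scaled reads it was 4.32-fold higher in FH-DHX36-E335A (3.12 to 5.99). LSM1, described above, also had all of its reads in the 5'UTR in FH-DHX36 and none there in FH-DHX36-E335A, while for EDC4 the 5'UTR share was the higher one in FH-DHX36-E335A. LSM4 and PAN2 were 2 members of 31 with more reads as deposited in FH-DHX36 than in the more deeply covered FH-DHX36-E335A, where the background over genes bound in both was 10.7%.

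The decapping enzyme DCP2 had 131 reads in 2 clusters of the 3'UTR in FH-DHX36 and 2718 reads in 28 clusters in FH-DHX36-E335A, 24 of them in the 3'UTR. This was the largest number of 3'UTR clusters of any member. NXPM was 20.4 in FH-DHX36 and 104 in FH-DHX36-E335A, and CNOT6L and DCP2 were the 2 of 48 bound members above 100 in the latter, where the background was 5.18% of bound genes. DCP2 (plus strand of chr5:112312399-112357892) has a 3'UTR of 8711 nt, so that the 3'UTR clusters came to 2.76 per kb against 1.45 per kb over all bound protein-coding genes. Its 4 G-run matches in the 3'UTR are printed for comparison with those of CNOT6L.
DCP2 3'UTR, chr5:112349808-112349828, plus: GGaGGGGcttgagtGGatGGG
DCP2 3'UTR, chr5:112354346-112354358, plus: GGtGGttGGGtGG
DCP2 3'UTR, chr5:112356835-112356853, plus: GGGaGGctgagttGGGtGG
DCP2 3'UTR, chr5:112356957-112356972, plus: GGGaGGctgaGGcaGG

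The decapping enhancer EDC3 was the member with the second most reads in FH-DHX36. It had 1606 reads there in 10 clusters and 2344 reads in 16 clusters in FH-DHX36-E335A, with 9 clusters of the 3'UTR in each. In scaled reads, though not as deposited, EDC3 was 2.78-fold higher in FH-DHX36 (2.61 to 2.96), and NXPM was 43.6 against 15.7. DCP1B, a cofactor of DCP2, had 378 reads in FH-DHX36, all in 1 cluster of other annotation, and 735 in FH-DHX36-E335A, and in scaled reads only it was 2.08-fold higher in FH-DHX36 (1.84 to 2.36). Its paralog DCP1A had no cluster in FH-DHX36 and 782 reads in FH-DHX36-E335A, 97.7% of them in the 3'UTR, with an NXPM of 48.6. EDC4, the scaffold of decapping, had 218 reads in FH-DHX36 and 458 in FH-DHX36-E335A, with 38.1% and 61.8% of them in the 5'UTR. The scavenger decapping enzyme DCPS, with 15 G-run matches in its 3'UTR, had 546 reads in FH-DHX36-E335A alone.

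EDC3 lies on the minus strand of chr15:74922899-74988633, and its ratio and that of DCP2 went in opposite directions. The 3'UTR of EDC3 has 2054 nt, 7 G-run matches and no ATTTA, the core pentamer of AU-rich elements. That of DCP2 has 8711 nt, 4 G-run matches and 28 ATTTA. A link of these features to the ratio was not tested in this pair. The EDC3 matches nearest to the coding sequence, with their guanine runs in capitals, and the EDC4 3'UTR match with runs of at least 3 are as follows.
EDC3 3'UTR, chr15:74924749-74924766, minus: GGGttccGGGctGGGtGG
EDC3 3'UTR, chr15:74924295-74924311, minus: GGtaGGGaaGGGGGcGG
EDC4 3'UTR, chr16:67918160-67918186, plus: GGGGtgtttGGGGGtcaGGGagcaGGG

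**Figure D2:**
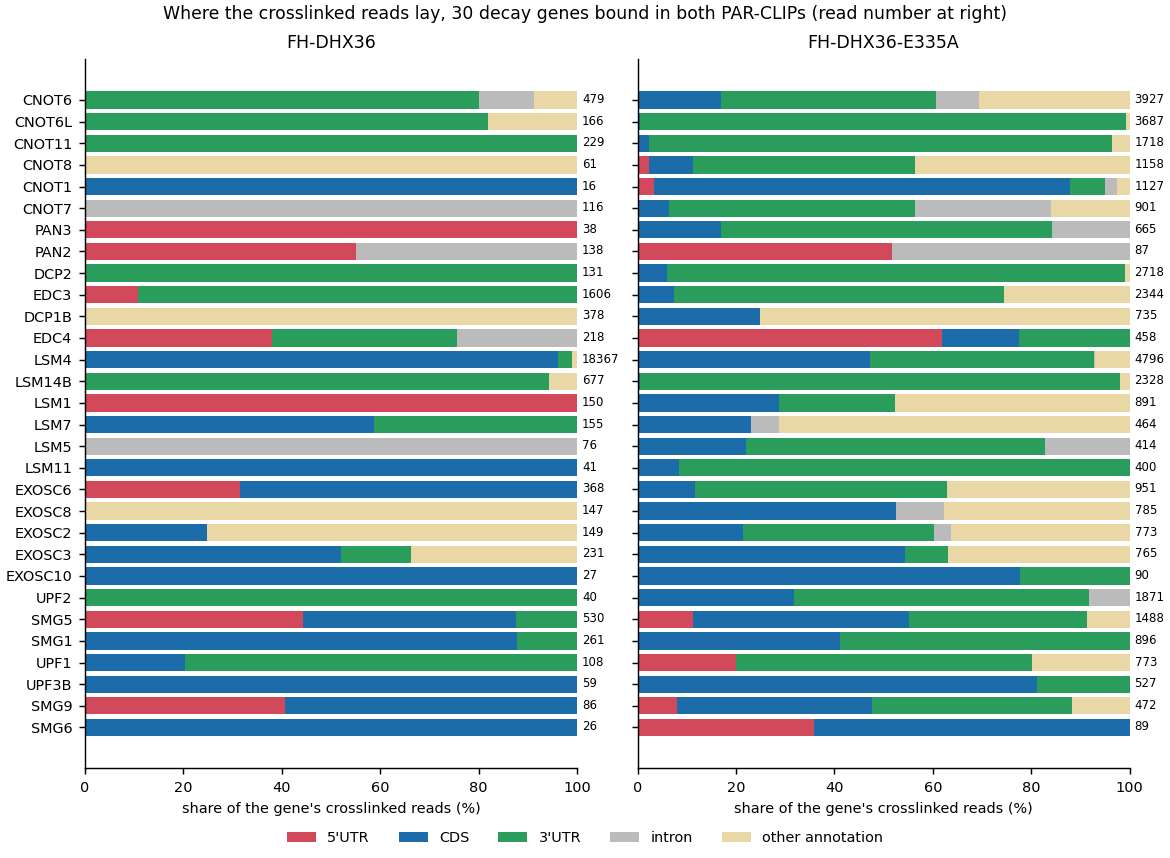
Share of crosslinked reads in each annotation region, in percent, for 30 of the 31 decay mRNAs bound in both PAR-CLIPs, with the number of reads at the right of each bar. Of the 7 members with at least 50 reads that are mainly coding in FH-DHX36, LSM4 (96.2%), EXOSC6, SMG1, SMG9 and UPF3B have a larger 3'UTR share in FH-DHX36-E335A, while in LSM7 it goes from 41.3% to 0 and in EXOSC3 from 14.3% to 8.76%. The 7 were picked by their CDS share in FH-DHX36, which by itself favors a larger 3'UTR share in the other line. EXOSC6, SMG9 and UPF3B had no 3'UTR reads in FH-DHX36, so that their share could not fall. Over all genes the 3'UTR share was 38.4% in FH-DHX36 and 53.3% in FH-DHX36-E335A. CNOT6L, DCP2 and LSM14B are examples that are mainly 3'UTR in both.

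Exosome mRNAs had low NXPM. The median over the 9 bound subunits was 0.671 in FH-DHX36-E335A, against 4.68 for the 48 bound members and 5.66 for all 9131 bound genes, and over 5 bound subunits in FH-DHX36 it was 2.73. EXOSC6, a subunit of the ring encoded by 1 exon, had 368 reads in FH-DHX36, of which 252 lay in the CDS (68.5%, 63.6 to 73.0) and 116 in the 5'UTR, and 951 in FH-DHX36-E335A, of which 486 lay in the 3'UTR and none in the 5'UTR. EXOSC8 had 147 and 785 reads, the former all in other annotation. EXOSC2 and EXOSC3, both cap subunits of the ring, had 149 and 231 reads in FH-DHX36 and 773 and 765 reads in FH-DHX36-E335A. For EXOSC3 the CDS held 51.9% and 54.4% of the reads. None of the 5 subunits bound in both lines reached a 2-fold difference of scaled reads. Of all 5669 genes bound in both, 2644 likewise stayed within 2-fold, as did 18 of the 31 members. The nuclease EXOSC10 had 27 and 90 reads, all in the CDS in FH-DHX36, and EXOSC1, EXOSC5, EXOSC7 and EXOSC9 were bound in FH-DHX36-E335A alone with 53 to 501 reads. The CLEC3B gene overlaps the span of EXOSC7 on the same strand, and the 95 EXOSC7 reads were all in the CDS.

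The 5' to 3' exonucleases had few reads. XRN1, the cytoplasmic enzyme, had 44 reads in 1 cluster of a 3'UTR of 4901 nt, and XRN2, the nuclear enzyme, had 171 reads in 4 clusters, both in FH-DHX36-E335A alone. NXPM was 3.10 for XRN1 and 1.07 for XRN2, and per kb of transcript they stood at 0.308 and 0.315.

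All 10 mRNAs of nonsense-mediated decay factors were bound in FH-DHX36-E335A and 8 of them in FH-DHX36. Over all 54 members these numbers were 48 and 31, and the backgrounds among protein-coding lines were 48.1% and 31.2%. UPF2, the adapter between UPF1 and the UPF3 proteins, had 40 reads in 1 cluster in FH-DHX36 and 1871 reads in 12 clusters in FH-DHX36-E335A. In scaled reads it was 11.6-fold higher in FH-DHX36-E335A (8.44 to 15.8), with an NXPM of 50.6 against 4.38. The helicase UPF1 had 108 and 773 reads, mostly in the 3'UTR in both lines. UPF3B had 59 reads in the CDS in FH-DHX36 and 527 reads in FH-DHX36-E335A, 81.2% of them (77.7 to 84.3) in the CDS, while its paralog UPF3A had 49 reads in FH-DHX36-E335A alone.

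In scaled reads, log2 ratios of FH-DHX36-E335A over FH-DHX36 of SMG1, SMG5, SMG6 and SMG9 stayed between -0.53 and 0.44. SMG5, an adapter that binds phosphorylated UPF1, had 530 and 1488 reads, and the share in its 5'UTR was 44.3% (40.2 to 48.6) in FH-DHX36 and 11.3% (9.78 to 13.0) in FH-DHX36-E335A. SMG1, the kinase of UPF1, had 261 and 896 reads and the highest NXPM of the members in FH-DHX36 with 54.1, followed by CNOT6L, CNOT6, LSM14B and EDC3. Its transcript is also long, and per kb of 16.1 kb its NXPM was 3.37, while LSM4 at 19.7 and DCP1B at 19.4 led that order. SMG1 has closely similar pseudogene copies on the same chromosome, and how reads shared with them were counted is not given in the sources used here, so its values are uncertain. The endonuclease SMG6 and the SMG1 regulator SMG9 had 26 and 86 reads in FH-DHX36 and 89 and 472 in FH-DHX36-E335A, and SMG8 had 341 in FH-DHX36-E335A alone.

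Taking the members together, the 3'UTR held 56.2% of their 44226 reads in FH-DHX36-E335A, near the 53.3% over all genes, and 15.8% of their 25349 reads in FH-DHX36, below the 38.4% over all genes. The low share in FH-DHX36 rests on LSM4. Without it the members' 3'UTR share was 50.1% (49.0 to 51.3), and the CDS share went from 74.8% to 18.7%. By clusters, which LSM4 does not dominate, the 3'UTR held 41.0% in FH-DHX36 and 46.8% in FH-DHX36-E335A, against 40.8% and 48.4% over all genes. More than 50% of the reads lay in the 3'UTR for 8 of 25 members with at least 50 reads in FH-DHX36 (background 36.8%) and for 20 of 45 in FH-DHX36-E335A (background 50.1%). For the CDS these numbers were 7 (background 27.0%) and 10 (background 15.9%), and for the 5'UTR 2 (background 8.62%) and 3 (background 3.05%). For introns they were 2 (background 10.9%) and 1 (background 4.65%), and for other annotation 4 (background 11.1%) and 4 (background 12.9%).

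The median NXPM of the bound members was 10.2 in FH-DHX36 and 4.68 in FH-DHX36-E335A, against 7.84 and 5.66 over all bound genes. The members differed widely among themselves, from 0.142 to 54.1 in FH-DHX36 and from 0.0778 to 272 in FH-DHX36-E335A. Per kb of transcript, 25 of 48 members lay above the median of bound protein-coding genes in FH-DHX36-E335A and 16 of 31 in FH-DHX36. By role, the median NXPM in FH-DHX36-E335A was 14.8 for CCR4-NOT, 17.3 for decapping and 16.4 for nonsense-mediated decay, and 0.982 for the LSM1 to LSM8 subunits and 0.671 for the exosome. The median recovered abundance of these groups was 10.2, 5.62 and 4.32, and 160 and 20.8. Across the 48 bound members Spearman's rho of NXPM and abundance was -0.76, and across all 9073 bound protein-coding genes it was -0.58. Both values share abundance by construction, and genes are not independent replicates.

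**Figure D3:**
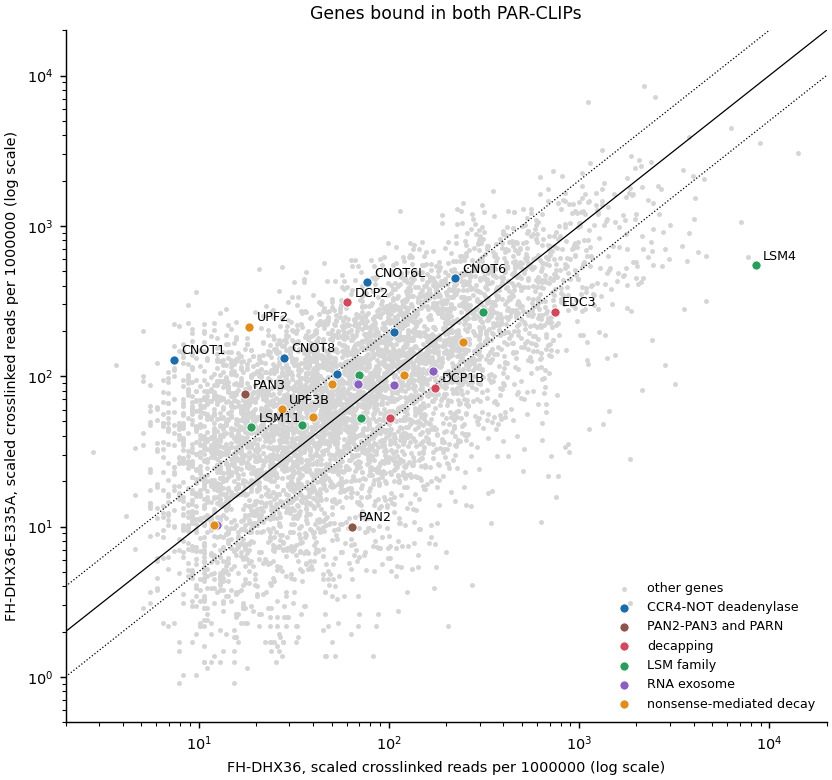
Scaled crosslinked reads, per 1000000 of each total, in FH-DHX36 (x axis) and FH-DHX36-E335A (y axis), both on log scales, for genes bound in both PAR-CLIPs, with decay mRNAs coloured by role and other genes in grey. The solid line marks equal values and the dotted lines a 2-fold difference, and named members lie at or beyond them, with LSM4 15.5-fold below the solid line and CNOT1 17.4-fold above it.

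Of the 31 members bound in both lines, 9 were at least 2-fold higher in scaled reads in FH-DHX36-E335A (background 28.6%) and 4 were at least 2-fold higher in FH-DHX36 (background 24.8%). The 9 were CNOT1, UPF2, CNOT6L, DCP2, CNOT8, PAN3, LSM11, UPF3B and CNOT6, and the 4 were LSM4, PAN2, EDC3 and DCP1B, of which EDC3 and DCP1B had more reads in FH-DHX36-E335A before scaling. The median log2 ratio of FH-DHX36-E335A over FH-DHX36 was 0.40 for the members and 0.12 for all 5669 genes bound in both. All 6 CCR4-NOT mRNAs bound in both lay on the FH-DHX36-E335A side, between 0.89 and 4.12, where 53.4% of all genes bound in both lay above 0. Among the 42 other decay factors, 14 of 25 bound in both were at least 2-fold higher in FH-DHX36-E335A and 2 were so in FH-DHX36. For 2 members, EXOSC10 and SMG6, the counting interval of the log2 ratio included 0, and for 17 it lay above (background 45.9%) and for 12 below (background 40.1%), shares of 54.8% and 38.7% that are near the background. These intervals leave out the spread between replicates.

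**Figure D4:**
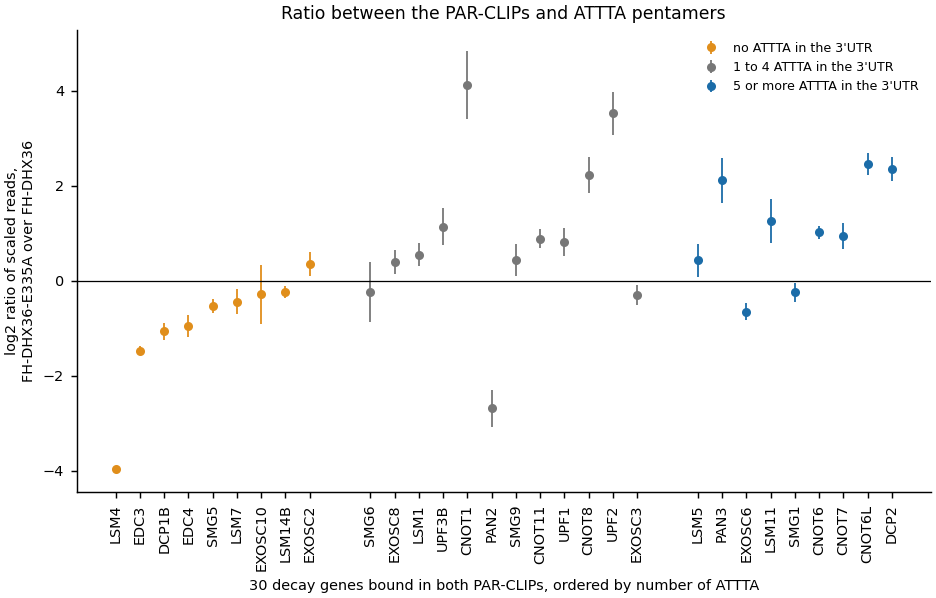
Log2 ratio of scaled crosslinked reads, FH-DHX36-E335A over FH-DHX36, of 30 of the 31 decay mRNAs bound in both PAR-CLIPs, in order of the number of ATTTA pentamers in the 3'UTR. Bars are 95% counting intervals. Of the 9 members without ATTTA, 8 lie below 0, and of the 9 members with 5 or more, 7 lie above 0. Over all protein-coding genes bound in both, 38.8% of those without ATTTA and 66.1% of those with 5 or more lie above 0.

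The ratio went with the number of ATTTA pentamers in the 3'UTR, a feature looked at after the ratios were seen. Of the 9 members without ATTTA, only EXOSC2 was higher in FH-DHX36-E335A, and their median log2 ratio was -0.53, from -3.96 for LSM4 to 0.36. With 1 to 4 pentamers, 9 of 13 members lay above 0 with a median of 0.55. With 5 or more, 7 of 9 lay above 0 with a median of 1.02, the exceptions being EXOSC6 and SMG1. Of all protein-coding 3'UTRs 66.3%, and of the members' 3'UTRs 79.6%, held at least 1 ATTTA, counted on the sense strand with overlaps. Over all protein-coding genes bound in both, the medians of the same classes were -0.41, -0.02 and 0.66, and 38.8%, 49.7% and 66.1% of the genes lay above 0. The 7 of 9 members with 5 or more pentamers, 77.8%, are near that last share. Spearman's rho of the ratio and the number of ATTTA was 0.58 across the 31 members and 0.28 across 5640 genes, and that of the ratio and the number of G-run matches was -0.02 and -0.09. The 3'UTRs with 5 or more pentamers were also longer, with a median of 4709 nt against 1118 nt for members without any, and rho of the ratio and the 3'UTR length was 0.37 across members and 0.17 across all genes. Which of these features the ratio follows was not tested.

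**Figure D5:**
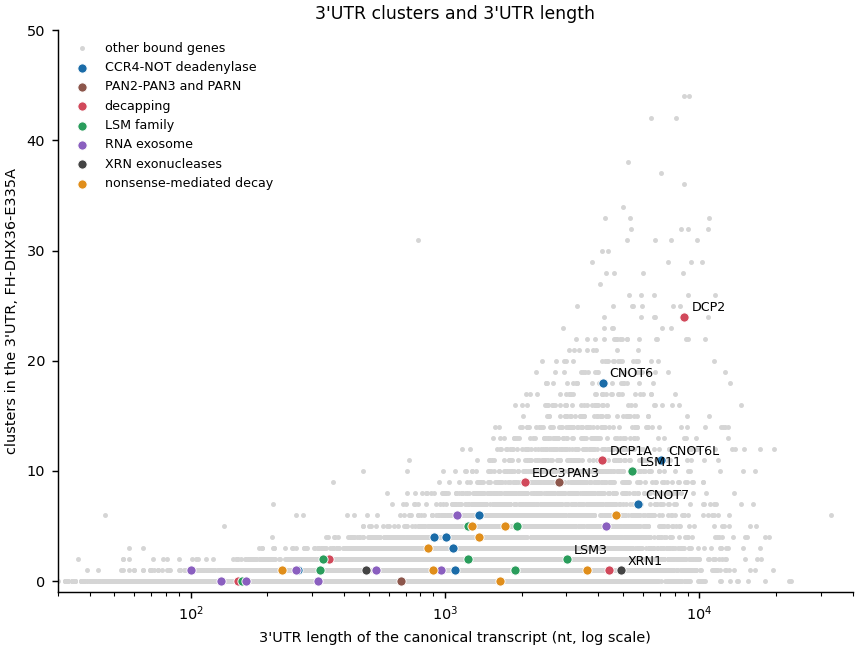
Clusters in the 3'UTR in FH-DHX36-E335A against the length of the 3'UTR on a log axis that starts at 30 nt, for 47 of the 48 bound decay mRNAs, coloured by role, and other bound genes in grey. DCP2 with 24 and CNOT6 with 18 clusters lead the members, and XRN1 has 1 cluster in 4901 nt.

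Longer 3'UTRs held more clusters. Across the 48 members bound in FH-DHX36-E335A, Spearman's rho of 3'UTR clusters and 3'UTR length was 0.69, and it was 0.43 across 9073 bound protein-coding genes. Per kb the members' 3'UTRs held 2.00 clusters in FH-DHX36-E335A and 0.489 in FH-DHX36, where all bound protein-coding genes held 1.45 and 0.519. Members with 3'UTRs of similar length still differed in number. CNOT6 had 18 clusters in 4158 nt, DCP1A had 11 in 4149 nt and DCPS had 1 in 4392 nt. Likewise XRN1 had 1 cluster in 4901 nt and SMG1 had 6 in 4709 nt. LSM8 had none, with the longest 3'UTR of the members, 12033 nt with 59 ATTTA.

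A G-run match with runs of at least 2 guanines was found in the 3'UTR of 35 of the 54 members, or 64.8%, which is close to the 63.2% of all protein-coding 3'UTRs. Matches came to 1.44 per kb of 3'UTR over the members and 1.85 per kb over all, and ATTTA to 2.63 per kb and 2.27 per kb. Stricter matches with runs of at least 3 guanines were found in 2 members, LSM14B and EDC4, or 3.70%, where 13.8% of all 3'UTRs had one. Spearman's rho of 3'UTR clusters in FH-DHX36-E335A and the number of matches was 0.43 across the 48 bound members and 0.27 across 9073 bound protein-coding genes, and the number of matches is counted over 3'UTRs of unequal length. Single members departed from this order. DCPS and SMG9 held the most matches in the 3'UTR with 15 each and had 1 cluster there each in FH-DHX36-E335A, and the 3'UTRs of UPF2 and CNOT1 had 5 and 4 clusters with 2 and 0 matches. A match is a stretch of letters, and whether any of them folds or is bound was not measured in these files.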

How the data were processed

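Per the labels and the study's methods, the authors mapped reads to hg19, called clusters with PARalyzer in PARpipe at default settings and annotated them with GENCODE v19. The submitters' processing notes name bcl2fastq 2.17.1, and versions of the other tools are not given in the sources used here. In the table, the deposited counts of clusters and crosslinked reads are whole numbers without normalization. NXPM was deposited by the authors as a score, and the 30 columns hold 1 pooled value per cell line.

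Abundance was recovered as scaled reads over NXPM, minus 0.001, on the scale of the authors' RNA-seq. Both PAR-CLIPs gave the same value for each of the 31 members bound in both. For the 17 members bound in FH-DHX36-E335A alone it came from that PAR-CLIP only, and the 6 without a cluster have none. Scaled reads are crosslinked reads per 1000000 of the total of a line. Ratios were taken for genes with a cluster in both lines, with Poisson 95% intervals on the log scale. Lengths and sequences came from the GENCODE 44 canonical transcripts on GRCh37. The code was tested on simulated data with Python 3.11.15, numpy 2.4.6 and pandas 2.3.3. No p-value was computed.

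Members and lists were chosen with earlier results of these data known. Named genes are the 3 members with the most FH-DHX36-E335A reads in each role, the 5 with the highest NXPM per line, up to 5 per region and line with more than 50% of at least 50 reads in the 5'UTR, introns or CDS, those with more reads in FH-DHX36 and those without a cluster. The others were named to account for the members, of which 1 enters counts and medians but is not reported here or drawn, and the ATTTA classes were chosen after their values were seen. For 15 members another protein-coding gene overlaps on the opposite strand and for 2, EXOSC7 and SMG8, on the same strand.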

Additional observations from a re-analysis of the deposited data

How the results depend on the processing

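No paired analysis was possible because the table gives 1 value per gene and cell line, so that neither a replicate block nor a fit without a single replicate could be run. The number of bound members was within 1.5 times of the reported one under every alternative but 1, at least 2 clusters in FH-DHX36, which left 18. The 3'UTR share depended on the way it was formed. In FH-DHX36 it was 41.0% by clusters, 16.8% of the reads in the 5'UTR, CDS and 3'UTR, 50.1% without LSM4 and 0.0% as the median of single members' shares, since 15 of the 31 bound members had a 3'UTR cluster. In FH-DHX36-E335A these values were 46.8%, 69.6%, 57.5% and 47.3%. The median NXPM in FH-DHX36-E335A was 14.0 when only the 31 members bound in both lines were taken, and the other NXPM alternatives left the medians unchanged. Without scaling to the totals, 27 members were at least 2-fold higher in FH-DHX36-E335A and 1 in FH-DHX36, as 75.7% and 3.97% of all genes were. Under the other scalings and the read filter these counts were 8 to 9 and 4 to 5. The shares of all genes were 26.2% to 28.9% and 24.3% to 27.2%. At a lower threshold of 1.5-fold the counts were 12 and 6, where the shares of all genes were 38.7% and 32.8%. Runs of at least 3 guanines left 2 members with a 3'UTR match, and other transcripts or loops gave 36 and 45.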

Other observations

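Paralogs among the members were alike in some pairs and unlike in others, a comparison made after the values were seen. CNOT7 and CNOT8 had 901 and 1158 reads in FH-DHX36-E335A, in 12 clusters each. Of these reads 50.1% and 45.1% lay in the 3'UTR, while neither gene had a 3'UTR cluster in FH-DHX36. CNOT6 and CNOT6L were both high, at 448.7 and 421 scaled reads in FH-DHX36-E335A, and stood at 221.7 and 76.8 in FH-DHX36. DCP1A had clusters in FH-DHX36-E335A alone, with 764 of 782 reads in the 3'UTR of 4149 nt, while DCP1B, whose 3'UTR has 153 nt, had none there in either line. UPF3A had 49 reads and UPF3B 527 in FH-DHX36-E335A at abundances of 4.42 and 3.00. LSM14B had 2328 reads and LSM14A no cluster, and no abundance is recorded for LSM14A.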
